A study of Mus musculus with 4 samples.

Results

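The NFI genes Nfia, Nfib, Nfic and Nfix were followed in single-nucleus chromatin accessibility data, together with the DNA motifs named for their proteins. The members were the 4 listed genes, out of 21951 protein-coding genes, and the motifs whose name starts with NFIA, NFIB, NFIC or NFIX, of which there were 4 (NFIA, NFIC, NFIC::TLX1 and NFIX) out of 579. No motif carried the name of NFIB. A gene's level was its count of transposition cut sites in those peaks of the library that touch the gene or the 2 kb in front of its start, scaled to the library's total in peaks (CPM). A motif's level was its percentage of all motif counts of the same nuclei. The genes held 35 of the 46698 genomic regions with a peak in every library, called common regions here. All 4 genes and all 4 motifs passed the filter on low counts in the comparisons of brain regions and of groups of nuclei given with a fold change.

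All 4 libraries came from mice of genotype Dlx6aCre;Sun1/sfGFP at P30 (postnatal day 30), and no library without the transgenes was analysed here. Dlx6aCre drives Cre recombinase in forebrain inhibitory neurons, while Sun1/sfGFP labels the nuclear envelope of cells in which Cre has been active, so that DAPI+/GFP+ nuclei could be sorted. Cortex and hippocampus had 2 libraries each. The labels do not say how many animals went into a library, so p-values measure only the spread between these libraries, which may be technical.

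The libraries held 2355 to 5576 nuclei and 32005984 to 117290059 cut sites in peaks, and the median nucleus held 7352 to 47236 cut sites. Cortex replicate 1 was the deepest per nucleus and cortex replicate 2 the shallowest, so each result was also computed without each library. Each pair of libraries shared 11 to 47 nuclear barcodes. All 7 pan-GABA genes held cut sites in every library and summed to 683 to 1085 CPM. The 5 excitatory-neuron genes summed to 36.9 to 65.0 CPM, with Neurod6 at 0 in all libraries. Vip, a marker of one class of interneuron, held no cut sites in the hippocampus libraries.

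NFI proteins (nuclear factor I) are DNA-binding transcription factors that bind as homodimers or heterodimers to a palindrome of which each arm is TTGGC, and a single arm is bound more weakly. The 4 paralogs share a conserved DNA-binding domain and so recognise nearly the same sequence. In the developing brain, NFIA is known for its part in the onset of gliogenesis and NFIB for forebrain glial and neuronal differentiation. NFIX is known there for the balance of neural stem cell quiescence and differentiation. Outside the brain, NFIB is known for lung maturation. NFIC is best known for tooth root formation. All 4 are also expressed in mature neurons and glia.

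The 4 stretches below show NFI sites in common regions of each of the 4 genes, each 120 bases long and printed from the + strand of GRCm38. Capitals mark the arms of the paired site and any further TTGGC or GCCAA. The Nfia, Nfib and Nfic stretches were the 3 among the 35 regions with a paired site, and the Nfix stretch is from the region that differed most by Lamp5 status.
Nfia region 2, chr4:97869206-97869325: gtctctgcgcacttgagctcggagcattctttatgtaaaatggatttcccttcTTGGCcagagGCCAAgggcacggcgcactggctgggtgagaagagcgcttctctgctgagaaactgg
Nfib region 12, chr4:82690369-82690488: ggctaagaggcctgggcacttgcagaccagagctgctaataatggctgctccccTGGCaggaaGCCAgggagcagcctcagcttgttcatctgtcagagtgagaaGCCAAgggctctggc
Nfic region 4, chr10:81412464-81412583: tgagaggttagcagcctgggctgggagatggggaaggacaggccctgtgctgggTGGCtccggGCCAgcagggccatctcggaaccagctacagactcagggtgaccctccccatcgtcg
Nfix region 11, chr8:84794259-84794378: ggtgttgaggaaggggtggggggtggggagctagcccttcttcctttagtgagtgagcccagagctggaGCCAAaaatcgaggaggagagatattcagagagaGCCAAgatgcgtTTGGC

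Nfia region 2 (chr4:97868379-97869856) lies in an intron 96.4 kb from the gene start and was the only one of the 35 regions with the full paired site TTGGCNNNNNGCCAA. The Nfib and Nfic stretches hold its core, TGGCNNNNNGCCA, in which the outer base of each arm is free. Both patterns read the same on either strand, and the single site was searched as TTGGC or GCCAA, so each full site also counts as a core and as single sites. The full site was found in 70 of the 46698 common regions (0.150%), the core in 2221 (4.76%) and the single site in 86.2%, at 2.00 per kb. Nfia region 2 held 13 single sites, or 8.80 per kb. Of the promoters that RefSeq gives on GRCm38 (250 bases before to 50 after a start), 6 belonged to Nfia, Nfic or Nfix, and 3 of these held a single site and 0 held a core. Among all 32851 such promoters, 46.7% held a single site and 0.807% a core.

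The level of the genes differed by paralog in the same order in every library when set per kb of gene. Nfic (59.45 kb, chr10:81396186-81455635, - strand) had 3.73 and 4.47 CPM per kb of gene in cortex and 3.16 and 3.71 in hippocampus. Nfix (100.469 kb, chr8:84699876-84800344, - strand) followed with 1.26 and 2.57 in cortex and 2.09 and 1.81 in hippocampus. Nfib (415.578 kb, chr4:82290173-82705750, - strand) had 0.443 and 0.300 in cortex and 0.447 and 0.557 in hippocampus, and Nfia (346.141 kb, chr4:97772734-98118874, + strand) had 0.234, 0.124, 0.273 and 0.310. The ranges of Nfic and Nfix did not overlap with each other or with the rest, while Nfia and Nfib, the long genes, overlapped across libraries though not within one. Set per kb of peak, the order changed: in cortex replicate 1, Nfic had 9.98 and Nfia 8.64 CPM per kb, and in cortex replicate 2, Nfia had 30.0 and Nfic 23.7. Peaks shared with the neighbouring gene E130114P18Rik held 32.6% to 65.9% of the cut sites of Nfia, and those shared with other genes held 8.28% to 11.5% of those of Nfix, so these reads cannot be assigned to 1 gene.

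The question of whether the members differed by brain region was addressed by comparing 2 hippocampus with 2 cortex libraries. Nfia was at 81.4 and 43.1 CPM in cortex and at 95.0 and 108 CPM in hippocampus. Nfib was at 185 and 125 CPM in cortex and at 187 and 232 in hippocampus. Both genes were lowest in cortex replicate 2 and the groups did not overlap, although for Nfib the nearest libraries were almost level. Nfic was at 229 and 275 CPM in cortex and 194 and 228 in hippocampus. Its groups did not overlap either, in the other direction, and its nearest libraries were almost level too. The share of all genes whose groups did not overlap was not computed. Nfix was at 129 and 264 CPM in cortex and 214 and 186 in hippocampus, with both hippocampus libraries between the cortex ones.

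None of the 4 genes passed the threshold between brain regions. By edgeR's quasi-likelihood test the log2 fold changes were 0.75 ± 0.38 (SE) for Nfia, 0.49 ± 0.33 for Nfib, -0.17 ± 0.26 for Nfic and 0.15 ± 0.36 for Nfix, each with an adjusted p of 1.0. The background was low as well, with 0.00613% of 16323 genes called by edgeR, or 1 gene, while 357 genes had an unadjusted p under 0.05 and DESeq2 called 153. Without cortex replicate 1, Nfia was the 1 NFI gene called (1.42 on the log2 scale, edgeR adjusted p = 0.032), beside 2.36% of 16812 genes, all of them higher in hippocampus. The cortex arm was then the shallowest library alone, assumed to vary like the hippocampus libraries. Among nuclei that leaned to Lhx6 or to Adarb2 (groups defined below), 0 of 4 genes were called between brain regions, against 0.00616% of genes in each. Nuclei high for an oligodendrocyte-lineage list (defined below) were 1.27% and 2.77% of the cortex and 6.58% and 6.38% of the hippocampus libraries. That list of 9 genes had a median log2 fold change of 1.61, the endothelial list 0.91, the excitatory-neuron list -0.56 and the MGE list -0.50. In each of these lists 0 members were called. Summed, the oligodendrocyte lineage list was at 319 and 254 CPM in cortex and 312 and 331 in hippocampus, with Sox10 at 0 in both cortex libraries and Olig2 in cortex replicate 2. Without the list-high nuclei, Nfia was at 80.6 and 43.3 CPM in cortex and 91.3 and 101 in hippocampus. The part of these lists in the NFI values was not tested.

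Of the motifs, 3 of 4 overlapped between brain regions, and the share of all 579 motifs that did so was not computed. NFIX was the highest with 0.149% and 0.0962% of motif counts in cortex and 0.141% and 0.122% in hippocampus. NFIA had 0.0661% and 0.0464% in cortex and 0.0637% and 0.0526% in hippocampus, and NFIC had 0.0554% and 0.0319% against 0.0576% and 0.0383%. For these 3 the second replicate was the lower one in both brain regions. NFIC::TLX1, a motif named for NFIC together with TLX1, had 0.0156% and 0.0118% in cortex and 0.0195% and 0.0194% in hippocampus. Its groups thus did not overlap. No NFI motif was called by edgeR, against 0.0% of all 579 motifs, of which 1 had an unadjusted p under 0.05 and DESeq2 called 0. The fold change of NFIC::TLX1 was 0.55 ± 0.34 (adjusted p = 1.0), and without cortex replicate 1, with a single cortex library left, it was 0.94 (adjusted p = 0.016) beside 116 of 579 motifs called.

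Inhibitory interneurons of cortex and hippocampus come mainly from the medial and the caudal ganglionic eminence (MGE and CGE). Lhx6 encodes a homeodomain factor that marks the MGE lineage, and Adarb2 encodes a double-stranded RNA binding protein of the adenosine deaminase family that marks the CGE lineage. To describe the members along this axis, nuclei were split by the log2 ratio of their relative Lhx6 to their relative Adarb2 cut-site rate, each relative to its library and with 0.25 added, into Lhx6-leaning (above 1), Adarb2-leaning (below -1) and mixed nuclei. Lhx6-leaning nuclei numbered 818 and 641 in cortex and 1490 and 812 in hippocampus, and Adarb2-leaning nuclei 607, 443, 1728 and 867. The Lhx6-leaning nuclei were 1.20 to 1.60 times as high as their library for a list of 8 MGE markers and the Adarb2-leaning nuclei 1.51 to 2.01 times for 8 CGE markers, both lists holding the gene that set the split. The median Lhx6-leaning nucleus was deeper than the median Adarb2-leaning one in every library, with 48061.5 against 43373, 9015 against 8379, 14373 against 12820 and 16972.5 against 15611 cut sites, and the part of depth was not tested.

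Nfib was higher in Adarb2-leaning than in Lhx6-leaning nuclei in all 4 libraries. Its levels were 283 against 134 CPM in cortex replicate 1, 143 against 107 in cortex replicate 2, 223 against 155 in hippocampus replicate 1 and 270 against 186 in hippocampus replicate 2. With library as a block, its log2 fold change was 0.66 ± 0.12 (edgeR adjusted p = 0.030), higher than that of 99.0% of the 16208 genes tested. It was the 1 NFI gene called there, where the background was 9.04% of genes, 3.99% higher and 5.05% lower. The call was lost without cortex replicate 2 (0.72, adjusted p = 0.087), without hippocampus replicate 2 (0.71, adjusted p = 0.059) and with stricter limits on the split (0.76, adjusted p = 0.079).

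Nfia and Nfix were on the same side in every library without passing the test. Nfia had 120 against 59.3 CPM in cortex replicate 1, 46.6 against 37.9 in cortex replicate 2, 105 against 76.8 in hippocampus replicate 1 and 111 against 89.5 in hippocampus replicate 2. Nfix had 245 against 69.7 CPM in cortex replicate 1, and 308 against 215, 235 against 193 and 190 against 153 in the others in the same order. The ratio of Nfix was thus 3.51 in cortex replicate 1 and 1.22 to 1.43 elsewhere. The fold changes were 0.57 ± 0.14 for Nfia (edgeR adjusted p = 0.068) and 0.73 ± 0.36 for Nfix (adjusted p = 0.39). Nfia was called without hippocampus replicate 2 (0.67, adjusted p = 0.043), on common regions alone (adjusted p = 0.0014) and by DESeq2 (adjusted p = 0.039). Without cortex replicate 1, Nfib (0.50, adjusted p = 8.3e-11), Nfia (0.37, adjusted p = 3.8e-05) and Nfix (0.35, adjusted p = 6.4e-07) were all called, beside 6.11% of genes.

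Nfic stood apart from its paralogs in these sums. It had 244 against 217 CPM in cortex replicate 1 and 286 against 246 in cortex replicate 2, but 191 against 199 and 227 against 223 in the hippocampus libraries. The fold change was 0.08 ± 0.05 (edgeR adjusted p = 0.35). Mixed nuclei lay close to the level of their library, at 0.861 to 1.09 times for the 4 genes. They numbered 918 and 3107 in cortex and 2354 and 1481 in hippocampus, and include all nuclei without a cut site in Lhx6 and Adarb2 that were not Olig2-high. In cortex replicate 2 they were 74.1% of nuclei, and 17.4% of its nuclei had an Lhx6 and 12.4% an Adarb2 cut site. Mixed nuclei are thus not an intermediate class. In sums over nuclei, fewer accessible nuclei and less accessibility per nucleus cannot be told apart.

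**Figure D1:**
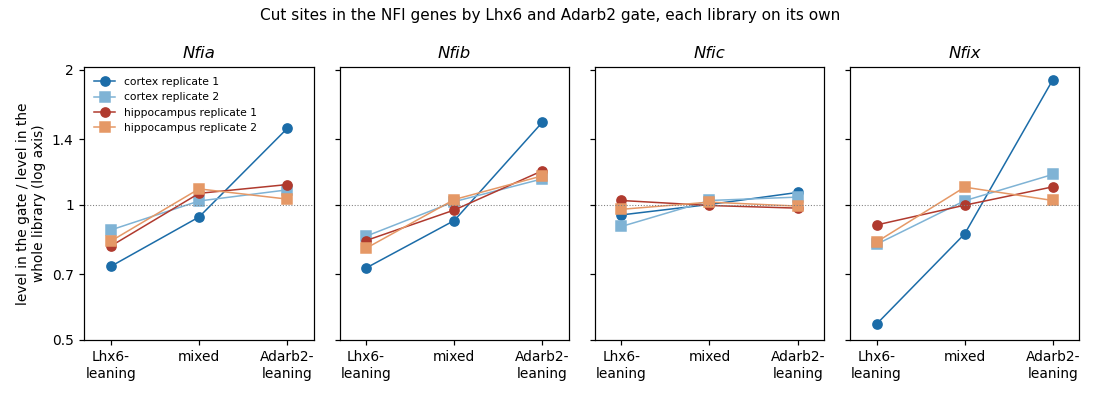
Level of each NFI gene in Lhx6-leaning, mixed and Adarb2-leaning nuclei, divided by its level in the whole library, on a log axis with one line per library. Nfia, Nfib and Nfix are higher in Adarb2-leaning than in Lhx6-leaning nuclei in all 4 libraries, and cortex replicate 1 has the steepest lines; Nfic lies near 1 throughout.

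Whether the step between the lineages differed by brain region was tested as an interaction. Hippocampus minus cortex was -0.45 ± 0.15 for Nfia (edgeR adjusted p = 0.28), -0.32 ± 0.20 for Nfib (adjusted p = 0.77), -0.20 ± 0.07 for Nfic (adjusted p = 0.32) and -0.95 ± 0.59 for Nfix (adjusted p = 0.84). None was called, where 0.719% of 16978 genes were. The result turned on the cortex library, and leaving one out gave an arm of a single library assumed to vary like the others. Without cortex replicate 2, Nfia (-0.64, adjusted p = 1.4e-08), Nfib (-0.56, adjusted p = 2.1e-09) and Nfix (-1.52, adjusted p = 1.7e-67) were called beside 3.81% of 17053 genes, and without cortex replicate 1 the values of Nfia and Nfib were 0.09 and 0.10 and that of Nfix -0.22 (adjusted p = 0.34).

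When nuclei were split instead by the whole MGE and CGE marker lists, with the same limit, all 4 genes were higher on the CGE side in every library. Nfix was 4.99 times as high in cortex replicate 1 and 1.31 to 1.71 times in the others. Nfib was 2.74 times as high in cortex replicate 1 and 1.36 to 1.81 times in the others, and Nfia 2.60 and 1.25 to 1.55 times. In that split Nfib (0.89, edgeR adjusted p = 0.017) and Nfia (adjusted p = 0.033) passed the test, beside 10.9% of 16125 genes. Nfic again moved least, at 1.04 to 1.18 times. The astrocyte list was 1.02 to 1.21 times its library level in Adarb2-leaning and 0.916 to 1.00 times in Lhx6-leaning nuclei. The oligodendrocyte lineage list had a median log2 fold change of 0.25 between Adarb2- and Lhx6-leaning nuclei, with 1 of 9 genes called higher (Cspg4), and summed it was at 0.889 to 0.973 times in Adarb2-leaning and 0.801 to 1.01 times in Lhx6-leaning nuclei, higher in Adarb2-leaning nuclei in the hippocampus libraries and lower in the cortex ones. The part of both lists in these values was not tested.

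Of the motifs, NFIC::TLX1 was higher in Adarb2-leaning nuclei, by 4% to 10% within a library. It took 0.0159% against 0.0154% of motif counts in cortex replicate 1, 0.0124% against 0.0112% in cortex replicate 2, and 0.0202% against 0.0189% and 0.0202% against 0.0185% in the hippocampus libraries. The log2 fold change was 0.10 ± 0.02 (edgeR adjusted p = 0.017), called among a background of 27.5% of motifs, 14.0% of them in this direction. The call was lost without cortex replicate 2 (adjusted p = 0.069), without hippocampus replicate 1 (adjusted p = 0.060) and with the split made on thinned nuclei (adjusted p = 0.087). NFIA (0.02, adjusted p = 0.51), NFIC (0.02, adjusted p = 0.46) and NFIX (0.01, adjusted p = 0.16) did not pass. A motif's level pools all peaks read as holding it and a gene's level is that of 1 locus. The sizes of their fold changes therefore cannot be compared.

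The difference by lineage was also followed in the 35 common regions of the NFI genes, which are part of the loci. Peaks outside them were not examined singly. Nfia, for example, had 13 and 3 peaks in cortex and 22 and 14 in hippocampus but 2 common regions. Of the 35 regions, 16 were called, 15 higher in Adarb2-leaning nuclei and 1 lower, beside a background of 20.4% of 46694 regions, 9.31% higher and 11.1% lower. Nfib held most of them, with 10 of its 13 regions higher and 1 lower. Both regions of Nfia, 2 of 8 of Nfic and 1 of 12 of Nfix were higher. All 12 regions of Nfix had a positive fold change, with a median of 0.70, and the median over all 35 was 0.52 against 0.01 over all regions. The count was 7 to 11 when a library was left out and 2 of 10 among regions at least 50% covered by a peak in every library, where 19.1% of 19533 regions were called, a share near that of the NFI regions.

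Single regions show part of the Nfib difference. Nfib region 5 (chr4:82504185-82508118) spans 10 annotated transcript starts 200 kb from the gene start, and had 56.6 against 25.3 CPM in cortex replicate 1, 17.4 against 11.3 in cortex replicate 2, 18.6 against 12.7 in hippocampus replicate 1 and 47.9 against 29.6 in hippocampus replicate 2. Its log2 fold change was 0.83 ± 0.10 (edgeR adjusted p = 8.8e-05). Nfib region 1, 321 kb from the gene start, had the highest fold change of the regions called, 1.49 ± 0.20 (adjusted p = 0.00021). Nfib region 13 (chr4:82695788-82696586), an intronic region, went the other way in all 4 libraries. It had 7.68 against 9.68 CPM and 7.17 against 10.3 in cortex and 1.96 against 3.18 and 1.84 against 3.75 in hippocampus, with a fold change of -0.56 ± 0.19 (adjusted p = 0.045). Regions 1 and 5 were called whichever library was left out, while region 13 was called only when cortex replicate 1 was the one left out, with -0.58 without cortex replicate 2 and -0.54 and -0.46 without hippocampus replicates 1 and 2.

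In the other genes the called regions lay at transcript starts and in introns. The intronic Nfia region 2 was called too, with a log2 fold change of 0.45. Nfia region 1 (chr4:97771777-97773669) covers a transcript start and is shared with E130114P18Rik. It had 34.6 against 23.2 and 32.0 against 25.3 CPM in cortex and 29.7 against 23.6 and 34.6 against 31.9 in hippocampus (0.37 ± 0.08, edgeR adjusted p = 0.0051). Nfix region 9 (chr8:84773455-84775674), also at a transcript start, had 50.6 against 13.0 and 56.8 against 23.4 CPM in cortex and 32.1 against 17.6 and 39.6 against 24.9 in hippocampus (1.23 ± 0.26, adjusted p = 0.043). Both were higher in Adarb2-leaning nuclei of all 4 libraries. Nfic region 4 (chr10:81410788-81418756), the intronic region with a core of the paired site printed above, was higher in 3 of 4 libraries. Its values were 81.8 against 59.9, 82.9 against 64.4, 41.4 against 43.1 and 67.9 against 58.6 CPM (0.27 ± 0.07, adjusted p = 0.014). These calls depended on single libraries: Nfia region 1 was lost without cortex replicate 1 (0.26), Nfix region 9 without cortex replicate 2 (1.23) or hippocampus replicate 1 (1.36), and Nfic region 4 without cortex replicate 1 (0.16), cortex replicate 2 (0.25) or hippocampus replicate 2 (0.28).

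**Figure D2:**
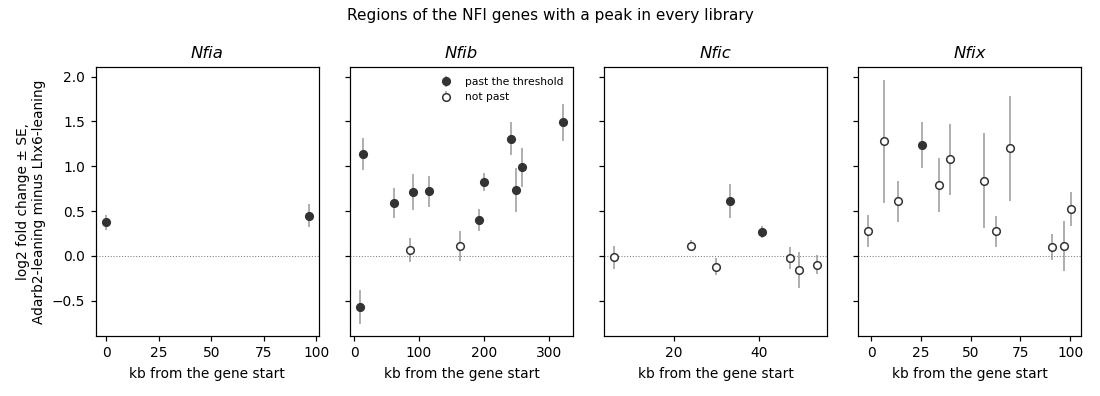
Log2 fold change of each common region of the 4 NFI genes between Adarb2-leaning and Lhx6-leaning nuclei, with its SE, against distance from the gene start in kb. Filled points passed the threshold. Of the 16 filled points, 15 lie above 0, and 11 belong to Nfib.

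Lamp5 encodes a lysosome-associated membrane protein and marks neurogliaform and related interneurons. Lamp5-high nuclei had at least 3 Lamp5 cut sites and at least 2 times the library's rate, and Lamp5-low nuclei had under 0.5 times that rate. They numbered 222 and 1583 in cortex replicate 1, 155 and 4676 in hippocampus replicate 1, and 90 and 2689 in hippocampus replicate 2. Cortex replicate 2 had 11 Lamp5-high nuclei, under the minimum of 30, and was left out. Lamp5-high nuclei were deeper than Lamp5-low ones in all 3 libraries (57241.5 against 44452, 15460 against 12189.5 and 18406.5 against 14341 cut sites at the median), and the part of depth in the results was not tested. They were 1.26, 1.72 and 2.02 times as high as their library for a list of 5 neurogliaform genes that includes Lamp5.

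Nfix and Nfib were higher in Lamp5-high nuclei in each of the 3 libraries. Nfix had 169 against 121 CPM in cortex replicate 1, 267 against 211 in hippocampus replicate 1 and 253 against 178 in hippocampus replicate 2. Nfib had 214 against 179, 233 against 179 and 316 against 224 CPM in the same order. Their log2 fold changes were 0.46 ± 0.06 for Nfix (edgeR adjusted p = 3.5e-06) and 0.38 ± 0.06 for Nfib (adjusted p = 8.9e-05), 2 of 4 genes called beside a background of 0.579% of 16230 genes, 0.437% higher. By p-value Nfix was number 2 and Nfib number 8 of all genes tested.

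Nfia and Nfic did not pass. Nfia had 88.1 against 79.8, 105 against 93.3 and 104 against 107 CPM (0.12 ± 0.08, edgeR adjusted p = 0.75), and Nfic 227 against 228, 184 against 193 and 237 against 229 CPM (0.00 ± 0.06, adjusted p = 1.0). In a split at 1 cut site, nuclei with at least 1 Lamp5 cut site and at least 2 times the library's rate were set against nuclei with none. The first group numbered 483 and 210 nuclei in cortex and 840 and 460 in hippocampus. Nuclei with any Lamp5 cut site numbered 767, 210, 896 and 471 in the same order. All 4 libraries could then be used, and Nfib (0.24, edgeR adjusted p = 0.00043) and Nfix (0.24, adjusted p = 0.00051) were again called, beside 1.68% of 16255 genes. In that split cortex replicate 2 did not share the direction for Nfib, with 0.910 times the level against 1.19, 1.23 and 1.20 times in the other libraries. Within 2 kb of the gene start none of the 3 NFI genes tested was called (Nfib was not tested there), and Nfix had a fold change of 0.26 (adjusted p = 0.87).

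The part of the Nfix locus that differed most by Lamp5 was region 11 (chr8:84792648-84795368), an intronic region 6.3 kb from the gene start from which the Nfix stretch above was taken. It had 25.9 against 16.2 CPM in cortex replicate 1, 45.6 against 23.1 in hippocampus replicate 1 and 60.1 against 25.1 in hippocampus replicate 2 (0.97 ± 0.13, edgeR adjusted p = 2.2e-06). It was called whichever library was left out. Nfix region 9 at a transcript start was the other region called (0.49 ± 0.13, adjusted p = 0.037), 2 of 35 beside 1.2% of 46692 regions, and its call was lost without cortex replicate 1 (0.42, adjusted p = 0.34), hippocampus replicate 1 (0.58, adjusted p = 0.067) or hippocampus replicate 2 (0.46, adjusted p = 0.17). Across the 35 regions 29 had a positive fold change and the median was 0.23. By lineage, region 11 had 43.4 against 4.33 CPM in Adarb2-leaning and Lhx6-leaning nuclei of cortex replicate 1, but 66.0 against 29.9, 29.1 against 19.6 and 27.4 against 24.7 in the others, and did not pass (1.28 ± 0.69, adjusted p = 0.33).

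Lamp5 interneurons of the hippocampus are known to include cells of the MGE lineage, so the Lamp5 split was repeated within each lineage group. Among Lhx6-leaning nuclei, Nfib had 141 against 135 CPM in cortex replicate 1 (45 and 594 nuclei), 222 against 146 in hippocampus replicate 1 (47 and 1239) and 313 against 173 in hippocampus replicate 2 (24 and 671). Nfix had 64.6 against 68.7 CPM in cortex replicate 1, 302 against 189 in hippocampus replicate 1 and 280 against 143 in hippocampus replicate 2. Both genes were thus within 0.940 to 1.04 times by Lamp5 status in the cortex library and 1.52 to 1.96 times as high in the hippocampus libraries. Among Adarb2-leaning nuclei the ratios were 1.15, 1.25 and 1.02 for Nfib and 1.26, 1.10 and 1.15 for Nfix in the same order, from 75, 45 and 28 Lamp5-high nuclei. Groups under 30 nuclei were not fitted. No NFI gene was called within either group, where edgeR called 0.0% of 16700 genes among Lhx6-leaning nuclei (466 at an unadjusted p under 0.05, and 0 by DESeq2) and 0.018% of 16682 among Adarb2-leaning nuclei (0.012% higher and 0.00599% lower).

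The larger groups of the split at 1 cut site allowed the difference between brain regions to be tested among Lhx6-leaning nuclei of all 4 libraries. Of these nuclei, 125 and 42 in cortex and 233 and 137 in hippocampus had a Lamp5 cut site and at least 2 times the library's rate. Their level over that of nuclei without Lamp5 cut sites was 0.981 and 0.931 for Nfib in cortex and 1.35 and 1.42 in hippocampus. For Nfix it was 0.942 and 1.08 in cortex and 1.15 and 1.41 in hippocampus. Nfia had 0.972 and 1.12 against 1.34 and 1.19. For all 3 the hippocampus libraries lay above the cortex ones, while Nfic had 1.09 and 0.943 against 1.04 and 0.991. The share of all genes with such an order of libraries was not computed. The interaction was 0.50 ± 0.14 for Nfib, number 5 by p-value (edgeR unadjusted p = 0.00046, adjusted p = 1.0), 0.35 ± 0.14 for Nfix, 0.34 ± 0.20 for Nfia and -0.05 ± 0.13 for Nfic. No gene passed the adjusted threshold (0.0% of 16616 by edgeR and 0 by DESeq2, with 502 and 209 at an unadjusted p under 0.05), and this comparison was chosen after the values of the libraries were seen.

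**Figure D3:**
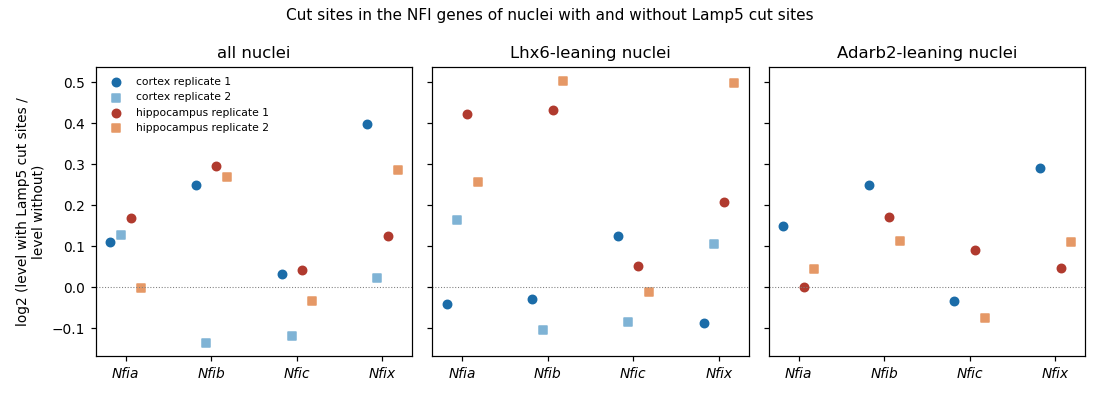
Log2 ratio of the level of each NFI gene in nuclei with Lamp5 cut sites to that in nuclei without, in all nuclei and within Lhx6-leaning and Adarb2-leaning nuclei, one point per library with at least 30 nuclei in both groups. Among Lhx6-leaning nuclei both hippocampus points of Nfib lie above 0 and both cortex points below it.

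Among motifs, NFIA was called by Lamp5 status with a small difference of 2% to 3% in each library (0.03 ± 0.002 on the log2 scale, edgeR adjusted p = 0.023), beside a background of 1.73% of motifs. Leaving out any of the 3 libraries, another scaling, stricter limits or the split at 1 cut site each ended the call. NFIC (0.02, adjusted p = 0.15), NFIX (0.02, adjusted p = 0.24) and NFIC::TLX1 (0.01, adjusted p = 0.98) were not called.

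Olig2 encodes a basic helix-loop-helix factor of the oligodendrocyte lineage, a cell class in which NFIA and NFIB are known to act during development. Nuclei with at least 3 Olig2 cut sites and 4 times the library's rate numbered 12, 0, 4 and 24 over the 4 libraries, too few to compare, and cortex replicate 2 had no peak in Olig2. A list of 9 oligodendrocyte-lineage genes that includes Olig2 was used with the same limits instead, giving 30 and 116 nuclei in cortex and 367 and 203 in hippocampus. These nuclei were shallower than the rest (23005, 4327, 3787 and 8309 against 47499, 7456, 13216 and 15498 cut sites at the median). Of the 9 genes, 8, 4, 8 and 9 exceeded their library's level. In cortex replicate 2, Mag, Sox10, Olig2 and Mog held no cut sites, and the pan-GABA list stayed at 0.779 times the library's level there against 0.343, 0.204 and 0.184 times in the other libraries. The label is thus weakly borne by cortex replicate 2, and values are given with and without it. The microglia list was at 0.894 to 1.72 times and the astrocyte list at 0.659 to 1.16 times the library's level, and their part in the values was not tested.

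Nfia showed the widest contrast in these nuclei. It had 207 against 80.6 CPM in the other nuclei of cortex replicate 1, 266 against 91.3 in hippocampus replicate 1 and 284 against 101 in hippocampus replicate 2, but 32.8 against 43.3 in cortex replicate 2. Nfix had 300 against 128 CPM in cortex replicate 1, 291 against 263 in cortex replicate 2, and 360 against 211 and 390 against 178 in the hippocampus libraries. Outside cortex replicate 2, Nfia was thus 2.57 to 2.92 times and Nfix 1.71 to 2.35 times as high as in the other nuclei. Both were called, with log2 fold changes of 1.04 ± 0.27 for Nfia (edgeR adjusted p = 0.029) and 0.74 ± 0.18 for Nfix (adjusted p = 0.026), 2 of 4 genes beside a background of 20.3% of 15917 genes, 8.9% higher.

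Nfib and Nfic were higher in every library too but did not pass. Nfib had 348 against 184, 160 against 125, 287 against 185 and 294 against 230 CPM (0.48 ± 0.15, edgeR adjusted p = 0.051), and Nfic 358 against 228, 295 against 274, 239 against 193 and 359 against 223 CPM (0.35 ± 0.15, adjusted p = 0.13). Without cortex replicate 2 all 4 genes were called, beside 39.6% of 16120 genes (Nfia 1.41, adjusted p = 1.2e-06, Nfix 0.97, adjusted p = 3.1e-05, Nfib 0.57, adjusted p = 0.003, and Nfic 0.48, adjusted p = 0.0072). Without cortex replicate 1, hippocampus replicate 1 or hippocampus replicate 2, none was, with 0.98, 0.86 and 0.93 for Nfia and 0.63, 0.75 and 0.66 for Nfix, beside 0.443%, 0.332% and 3.18% of genes called.

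Olig2 itself gave the same direction in the 3 libraries with Olig2 cut sites. In nuclei with at least 1 Olig2 cut site and 4 times the library's rate (97, 64 and 117 nuclei), Nfia was 1.54, 1.74 and 1.90 times as high as in nuclei without (0.71, edgeR adjusted p = 0.00077), and Nfix 1.27, 1.49 and 1.57 times (0.45, adjusted p = 0.018), beside 10.5% of 16193 genes called. Nfib was 1.30, 1.30 and 1.10 times and Nfic 1.26, 0.965 and 1.27 times as high.

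**Figure D4:**
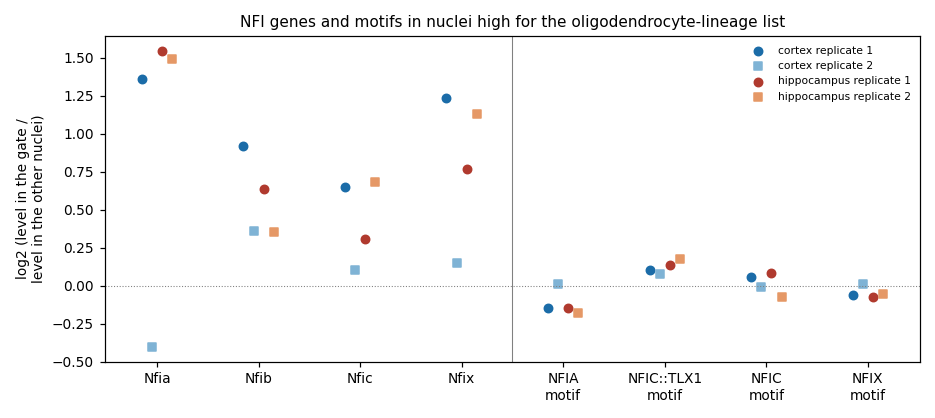
Log2 ratio of each NFI gene (left) and motif (right) between nuclei high for the oligodendrocyte-lineage list and the other nuclei, one point per library. All genes lie above 0 except Nfia in cortex replicate 2, while the motifs lie close to 0 and NFIA lies below it in 3 of 4 libraries.

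No NFI motif was called higher in these nuclei. The NFIA motif was at 0.902, 1.01, 0.902 and 0.881 times the level of the other nuclei (-0.15 ± 0.06, edgeR adjusted p = 0.034), a call lost when any library was left out, beside a background of 48.7% of motifs called, 36.1% lower. NFIX (-0.08, adjusted p = 0.26), NFIC (-0.02, adjusted p = 0.85) and NFIC::TLX1 (0.09, adjusted p = 0.28) were not called. Peaks that hold the full paired site took the larger share of cut sites in the list-high nuclei of every library, 0.206% against 0.164% and 0.0763% against 0.0642% in cortex and 0.198% against 0.136% and 0.201% against 0.152% in hippocampus. For Adarb2-leaning against Lhx6-leaning nuclei the shares were closer, 0.170% against 0.160%, 0.0636% against 0.0612%, 0.143% against 0.132% and 0.160% against 0.145%. For Lamp5-high against Lamp5-low nuclei they were lower in all 3 libraries, 0.1637% against 0.1642% in cortex replicate 1 and 0.134% against 0.137% and 0.149% against 0.153% in hippocampus. Peaks with the core of that site went the other way by Lamp5 in all 3 libraries, 5.399% against 5.390% in cortex replicate 1. In hippocampus they took 4.551% against 4.531% and 4.990% against 4.930%. By lineage and by the list, the core shares had the direction of the full-site shares in every library. No test was run on these shares.

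Of the 35 NFI regions, 8 were higher and 0 lower in the list-high nuclei, beside 11.0% of 46601 regions called, 5.9% higher. Their median fold change was 0.60 against -0.51 over all regions. Nfib region 5, the transcript-start region described above, had 111 against 35.7, 25.5 against 13.0, 43.0 against 15.5 and 101 against 39.5 CPM (1.53 ± 0.20, edgeR adjusted p = 0.0014) and was called whichever library was left out. Nfix region 8 (chr8:84764840-84767308) had 68.0 against 8.40 CPM in cortex replicate 1 and 46.9 against 9.44 and 70.5 against 15.8 in hippocampus, but 7.28 against 13.9 in cortex replicate 2 (2.12 ± 0.46, adjusted p = 0.019). Nfia region 1 had the same pattern, 108 against 26.5, 83.3 against 26.9 and 101 against 34.5 CPM, with 16.4 against 28.6 in cortex replicate 2 (1.46 ± 0.35, adjusted p = 0.029). Nfic region 4 was higher in all 4 libraries, 156 against 68.1, 107 against 82.0, 68.7 against 40.7 and 150 against 64.0 CPM (1.03 ± 0.20, adjusted p = 0.013). Nfix region 9 was called here as well (1.03 ± 0.23, adjusted p = 0.021), which made it the one NFI region called by lineage, by Lamp5 and by the oligodendrocyte-lineage list. Without cortex replicate 1, hippocampus replicate 1 or hippocampus replicate 2, the calls of Nfix region 8 (1.75, 1.95 and 2.01), Nfia region 1 (1.21, 1.31 and 1.35), Nfic region 4 (0.97, 1.09 and 0.93) and Nfix region 9 (0.95, 1.07 and 0.93) were lost, and without cortex replicate 2 the count of NFI regions called was 19, 14 higher and 5 lower, beside 40.3% of 46640 regions.

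The density of single NFI sites in all common regions was then set beside these comparisons. By lineage, regions without a site were higher in Adarb2-leaning nuclei in 6.25% of cases and lower in 14.9%, and those with over 6 sites per kb in 23.5% and 6.28%. The share higher increased at each step of density, through 7.57%, 10.7% and 15.2%, and the share lower decreased. By Lamp5 the share higher was 0.545% without a site and 4.64% with over 6 per kb, and the share lower did not decrease as it did by lineage, at 0.0778% without a site and 0.168%, 0.213%, 0.314% and 0.273% in the denser groups. By the oligodendrocyte-lineage list it was 2.85% without a site and 5.99%, 6.82%, 6.33% and 7.52% in the denser groups, while the share lower was 3.31% without a site, 5.57% in the next group and 2.74% in the densest. The median fold change there was -0.77 in the densest group, the lowest of the 5, and -0.70 without a site. The groups held 6427, 19601, 16433, 3501 and 732 regions. Region width was uneven between them, with medians of 738, 1318, 1281, 885 and 683.5 bp, and median GC content was 48.0% to 51.0%, and their part in these shares was not tested. Regions with a core of the paired site were higher in Adarb2-leaning nuclei in 12.3% of cases and lower in 7.16%. All regions were so in 9.31% and 11.1%. By Lamp5, core regions were higher in 0.991% and lower in 0.54%, against 1.02% and 0.184% of all regions. By the oligodendrocyte-lineage list the shares were 8.12% and 5.82%, against 5.9% and 5.05%. The letters are a description of the sequence and not of a bound site.

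**Figure D5:**
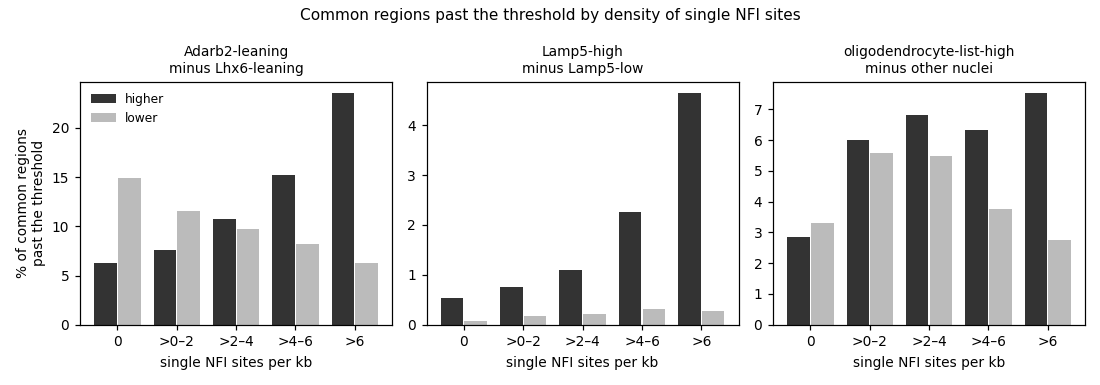
Percentage of all common regions called higher (dark) or lower (grey) in each comparison, by density of the single NFI site in sites per kb. In the left panel the dark bars increase from 6.25% to 23.5% and the grey bars decrease from 14.9% to 6.28%; each panel has its own vertical scale starting at 0.

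Genes linked to NFI factors, a list of 16 known as targets or partners in cerebellar granule neurons, glia or progenitors, did not move as a group with the NFI genes. By lineage, 3 of the 14 tested were called higher and 2 lower, or 5 in all beside 3.99% of genes higher and 5.05% lower, with a median of 0.01 against 0.00 over all genes. Ephb1, an ephrin receptor, was higher in Adarb2-leaning nuclei (0.27 ± 0.05, edgeR adjusted p = 0.0031), as was Apcdd1, a Wnt inhibitor (0.34 ± 0.08, adjusted p = 0.013). Ski, a transcriptional corepressor (-0.22 ± 0.04, adjusted p = 0.0030), and S100b, a glial calcium-binding protein (-0.49 ± 0.10, adjusted p = 0.0052), were lower. By Lamp5 and by brain region 0 of 14 were called. In nuclei high for the oligodendrocyte-lineage list, 4 of 14 were higher and 2 lower, beside 20.3% of genes called, with a median of 0.23 against -0.05 over all genes. Ezh2 (0.91 ± 0.19, adjusted p = 0.016), a histone methyltransferase, Mmd2 (1.02 ± 0.22, adjusted p = 0.018) and Cntn2 (0.85 ± 0.18, adjusted p = 0.018), a cell adhesion protein, were higher, and Sox9 (-1.72 ± 0.35, adjusted p = 0.016), an astrocyte and progenitor factor, was lower. The count by lineage, 5 in all, was 3 without cortex replicate 1 or hippocampus replicate 2 and 0 with the split made on thinned nuclei. The count in the list-high nuclei, 6 in all, was 0 without cortex replicate 1 or hippocampus replicate 1 and 1 without hippocampus replicate 2.

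Likeness of pattern was measured as Pearson's r of log2(CPM + 1) across 12 sums of nuclei (Lamp5-high and Lamp5-low nuclei of each lineage group, where these held at least 30 nuclei), less each library's mean, over 12054 genes. The sums share libraries and depth, so the values are descriptive. Nfia and Nfib were among the nearest 3 genes of each other, with r = 0.979. Nfia was nearest to Il1rap (0.984), Nfib to Rps6kc1 (0.986), Nfix to Pde11a (0.984) and Caln1 (0.979), and Nfic to Pou6f1 (0.918). Nfix had r = 0.936 with Nfia and 0.912 with Nfib. Nfic was the least like the others, with r = 0.303 to 0.400.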

How the data were processed

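Accessible chromatin of sorted nuclei was measured with the 10x Genomics single-nucleus ATAC assay. The authors deposited raw counts of cut sites per peak and nucleus and, in a second matrix, raw counts per nucleus for 579 motifs, with no normalization. The submitters' processing notes name Cell Ranger ATAC 1.2.0 and GRCm38. Each library has its own peak list, so a gene is only counted inside that library's peaks. How the motif counts were made is not stated in the files, and they were read as counts in peaks holding the motif.

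Counts were summed over the nuclei of a group and library, since nuclei are not replicates. Overlapping peaks (at least 1 bp) were merged into 185260 regions, of which 46698 held a peak of each library. Sums were tested with edgeR 4.0.16 in R 4.3.3 (quasi-likelihood F test with robust fitting, TMM, filterByExpr, prior count of 2, two-sided), fitted over all genes, motifs or regions, with Benjamini-Hochberg adjustment and a threshold of 0.05. Comparisons of groups of nuclei had library as a block and used libraries with at least 30 nuclei in both groups. SEs were derived from the fold change and F statistic. DESeq2 1.42.0 was an alternative. Barcodes were used as deposited, and no doublet caller was run. Nuclei over 3 times the median depth were left out as an alternative.

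The members, gene lists and splits were chosen with earlier results of these data known. All NFI genes and motifs are named. At most 4 called genes of the NFI-linked list are named per comparison, chosen by p. In each NFI gene and comparison of groups of nuclei, the called region with the smallest p in each direction is named, and for likeness the nearest 3 genes were computed. Nfib regions 1 and 12, Nfia region 2, Nfix region 9 beyond its lineage value and the lineage values of Nfix region 11 were named after their values were seen. The oligodendrocyte-list split, the splits at 1 cut site, the marker-list split and the interaction among Lhx6-leaning nuclei were added after seeing the data.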

Additional observations from a re-analysis of the deposited data

Results flagged for a closer look

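The within-library log2 ratios of the 4 NFI genes and 4 motifs were searched for a library far from the other 3 by Dixon's criterion (the gap to the nearest library over the whole range). Of 32 sets of 4 libraries, 5 were found, where chance gives about 5% of sets.

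Nfib was higher in Adarb2-leaning than in Lhx6-leaning nuclei by 1.08 on the log2 scale in cortex replicate 1 and by 0.43 to 0.54 in the other libraries, and Nfix by 1.81 and by 0.28 to 0.52. Nfia was at -0.40 in the oligodendrocyte-list-high nuclei of cortex replicate 2 and at 1.36 to 1.54 in the others. In the Lamp5 split at 1 cut site, Nfib in cortex replicate 2 was at -0.14 and the others at 0.25 to 0.30, and the NFIX motif at -0.0152 there. All 5 thus lay in one of the cortex libraries, the deepest and the shallowest per nucleus.

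In the Lamp5 split at 1 cut site, the log2 ratio of Nfib among Lhx6-leaning nuclei had opposite signs in the 2 brain regions. Its mean was 0.54 higher in hippocampus than in cortex. That comparison was chosen after the values were seen. The interaction had an unadjusted p of 0.00046 by edgeR's quasi-likelihood test and an adjusted p of 1.0. In the Lamp5-high split, cortex replicate 1 was nearly level and had the same sign as the hippocampus libraries. Slc1a3, a glial glutamate transporter on the NFI-linked list, differed in its lineage effect between hippocampus and cortex by -0.69 ± 0.16 (edgeR adjusted p = 0.031). It had 31.0 against 21.7 and 23.0 against 18.3 CPM in Adarb2-leaning and Lhx6-leaning nuclei of cortex, and 29.0 against 33.8 and 25.5 against 30.6 in hippocampus. This call was lost without cortex replicate 1 (-0.56), hippocampus replicate 1 (-0.71) or hippocampus replicate 2 (-0.67).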

How the results depend on the processing

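With 2 to 4 libraries per comparison, single libraries decided many calls, and shallow nuclei limited the splits. Of 113 recomputed counts of NFI genes, motifs or regions called under other settings, 96 stayed within 1.5 times, and of 57 recomputed with a library left out, 29 did. Where a count or value changed, the cause was not tested.

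By brain region, NFI genes called were 0 to 1 and motifs 0 to 1 with a library left out (1 each without cortex replicate 1), and genes among Adarb2-leaning nuclei 0 to 1. By lineage, NFI genes called were 2 with DESeq2, on common regions, with the split on thinned nuclei and with the marker-list split, 0 with stricter limits, and 0 to 3 with a library left out. Of all genes, the same settings called 5.98%, 12.3%, 3.71%, 10.9% and 6.3% in that order, and 5.39% to 6.73% with a library left out. Motifs were 0 on thinned nuclei and 0 to 1 with a library left out, beside 10.5% and 9.84% to 17.8% of all motifs. Regions were 2 among those at least 50% covered and 7 to 11 with a library left out. The shares of all regions were 19.1% and 14.0% to 15.6%. Genes called for the interaction of lineage and brain region were 1 within 2 kb of the gene start and with the split on thinned nuclei (Nfix in both), and 0 to 3 with a library left out. For that interaction, 0.431% of all genes were called within 2 kb of the gene start and 0.142% on thinned nuclei. By Lamp5, genes were 0 within 2 kb of the gene start, beside 0.134% of all genes. Motifs were 2 with DESeq2, beside 16.2% of all motifs, and 0 at 1 cut site, beside 31.3%. They were 0 with the other size factors, with stricter limits and with any library left out, beside 0.0%. Regions were 1 to 2 with a library left out, beside 0.223% to 1.35%. By the oligodendrocyte-lineage list, genes were 4 with DESeq2, 1 within 2 kb of the gene start and 0 to 4 with a library left out. Those settings called 25.3%, 18.7% and 0.332% to 39.6% of all genes. Motifs were 0 with any library left out, beside 0.0% to 44.0%. Regions were 1 among those at least 50% covered, beside 8.85%, and 1 to 19 with a library left out, beside 0.894% to 40.3%.

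Values that changed sign were those of members that had not passed, except Ski. Within 2 kb of the gene start, Nfic was 1.92 by brain region, -0.21 by lineage, -0.42 by Lamp5, -2.04 by the oligodendrocyte-lineage list and 0.50 for the interaction. There Nfia was -0.0397 by Lamp5, Nfib 0.14 for the interaction and Ski 0.0781 by lineage, and among Lhx6-leaning nuclei Nfib, Nfix and Nfic were -0.61, -0.0093 and -0.78 by Lamp5. On common regions Nfic was -0.0127 by Lamp5, and with DESeq2 or its size factors the NFIC motif was 0.0028 by the oligodendrocyte-lineage list. With a library left out, the ranges by brain region were -0.20 to 0.65 for Nfix, -0.19 to 0.55 for the NFIA motif, -0.23 to 0.81 for NFIC and -0.18 to 0.67 for NFIX. They were -0.0006 to 0.0322 for the NFIA motif by lineage, -0.0272 to 0.0395 for Nfic by Lamp5, -0.0277 to 0.0815 for the NFIC motif by the oligodendrocyte-lineage list, and for the interactions -0.64 to 0.0947 for Nfia, -0.56 to 0.10 for Nfib and, among Lhx6-leaning nuclei by Lamp5, -0.11 to 0.0890 for Nfic.

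Counts over all genes moved too. By brain region they were 1 with edgeR, 153 with DESeq2 and 0 to 397 with a library left out, and by lineage 1465, with 598 on thinned nuclei. By Lamp5 they were 94, with 21 to 151 when a library was left out and 273 at 1 cut site, and by the oligodendrocyte-lineage list 3233, with 52 to 6379. The same-numbered libraries of cortex and hippocampus shared only a number, with a correlation of 0.169 across 16323 genes between their deviations. With the replicate number as a block, 0 NFI genes and 0 motifs were called by brain region, and Nfia was 0.85, Nfib 0.54, Nfic -0.17 and Nfix 0.20. The planned split at Olig2-high nuclei was not run, since every library had under 30, and neither was the Lamp5 split on thinned nuclei, which left none with enough.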

Other observations

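Nuclei were also split by Sst, Pvalb and Vip, which mark classes of interneuron, with the limits used for Lamp5, and the NFI levels are given as values with no test. Sst-high nuclei (323 and 40 in cortex, 45 and 21 in hippocampus) were low for all 4 genes in every library. At the median they held 53760, 11670.5, 17842 and 20540 cut sites, against 47236, 7352, 12685.5 and 14917 in all nuclei. The part of depth was not tested, and the share of all genes this low was not computed. Nfib was at 0.642 and 0.530 times the library's level in cortex and 0.486 and 0.474 times in hippocampus, Nfia at 0.469 to 0.732 times, Nfix at 0.396 to 0.787 times and Nfic at 0.584 to 0.942 times. Pvalb-high nuclei (352, 72, 223 and 91) were closer to their library for Nfia, at 0.966 to 1.08 times, and Nfib, at 0.724 to 0.981 times. Nfix was lower in them in all 4 libraries, at 0.676, 0.879, 0.854 and 0.623 times. Vip-high nuclei reached 30 in cortex replicate 1 alone, where 31 nuclei had 1.29 times the level of Nfia, 1.47 times that of Nfib, 1.04 times that of Nfic and 1.67 times that of Nfix.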
